A study of Mus musculus with 6 samples.

Results

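The 10 genes described here encode the core of antigen presentation by major histocompatibility complex (MHC) molecules: the class I heavy chains H2-K1 and H2-D1, their partner B2m, the peptide transporter subunits Tap1 and Tap2, the loading factor Tapbp, the class II chains H2-Aa, H2-Ab1 and H2-Eb1, and the class II invariant chain Cd74. They were chosen by name, and all 10 had a row among the 16289 genes of the deposited count table. The data are RNA-seq read counts per gene from whole tibialis anterior, the muscle that lifts the foot. The mice were wild-type C57BL/6J males, 12 weeks old, and the muscle had been injected with glycerol, a chemical injury after which fibres die and are rebuilt. There were 3 mice with glycerol injection and melatonin, the night hormone of the pineal (glycerol+melatonin), and 3 mice with glycerol injection and a control treatment (glycerol). All muscles were taken 14 days after the injection, and every mouse, the controls included, carried the injury. No uninjured muscle was analysed here, and how melatonin was dosed is not stated in the labels.

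MHC class I molecules sit on almost all nucleated cells and show CD8+ T cells short peptides cut from the cell's own proteins by the proteasome. The peptides are pumped into the endoplasmic reticulum by the transporter formed of Tap1 and Tap2, and tapasin, the product of Tapbp, holds an empty heavy chain with B2m next to it until a peptide is bound. Class II molecules are made mainly by dendritic cells, macrophages and B cells and show CD4+ T cells peptides from material taken up from outside, and the invariant chain Cd74 fills and guides them until they reach the endosome. In muscle the resting fibre carries little class I, and class II is found mostly on leukocytes between the fibres. C57BL/6J mice carry an MHC haplotype without a working E alpha chain, so the H2-Eb1 transcript is made while the E molecule is absent from the cell surface. In whole muscle, fewer cells of a type and less RNA per cell cannot be told apart.

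The transcription of class I genes is helped by Nlrc5 and that of class II genes by Ciita, which act through factors bound to short boxes before the gene, among them NF-Y, which binds CCAAT, while interferon regulatory factors bind elements close to AANNGAAA. The bases before the start of a class I heavy chain, its partner and both class II chains with a sequence are shown to place these boxes next to the counts that follow, from RefSeq on build GRCm38.p6. Each line gives the 170 bases before the annotated start, 5′ to 3′ on the gene's strand. Capitals mark CCAAT or AANNGAAA on either strand.
H2-K1 (minus strand, chr17:34000348-34000517): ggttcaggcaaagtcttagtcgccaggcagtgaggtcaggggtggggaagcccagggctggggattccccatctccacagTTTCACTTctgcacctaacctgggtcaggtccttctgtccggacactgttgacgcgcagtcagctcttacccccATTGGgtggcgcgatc
B2m (plus strand, chr2:122147517-122147686): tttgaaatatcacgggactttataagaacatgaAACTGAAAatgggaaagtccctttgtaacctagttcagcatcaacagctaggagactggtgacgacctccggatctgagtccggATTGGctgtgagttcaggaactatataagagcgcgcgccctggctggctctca
H2-Aa (minus strand, chr17:34287824-34287993): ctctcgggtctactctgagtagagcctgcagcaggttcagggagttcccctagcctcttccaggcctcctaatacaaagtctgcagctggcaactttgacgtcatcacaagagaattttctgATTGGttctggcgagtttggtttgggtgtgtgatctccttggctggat
H2-Eb1 (plus strand, chr17:34305697-34305866): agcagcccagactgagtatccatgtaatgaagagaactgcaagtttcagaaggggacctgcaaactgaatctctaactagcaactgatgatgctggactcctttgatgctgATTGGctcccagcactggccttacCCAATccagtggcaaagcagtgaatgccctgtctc
Counted back from the start, the 2 marked boxes of H2-K1 begin at positions -90 and -16, and in B2m they begin at positions -137 and -53. H2-Aa and H2-Eb1 each hold the longer run CTGATTGG, at positions -51 and -62, and H2-Eb1 has a second CCAAT on the other strand at position -35.

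Of the 10 genes, 7 had an entry in the sequence table and were searched over 250 bases before the start; Tap2, H2-Ab1 and Cd74 were not among them. CCAAT, read on both strands, stood in 7 of these 7, against 33.8% of the 32851 promoters in the table. AANNGAAA stood in 4 of 7 (H2-K1, H2-D1, B2m and H2-Aa), against 21.3% of promoters, and CTGATTGG, which contains the CCAAT box on the reverse strand, in 4 of 7 (H2-D1, Tap1, H2-Aa and H2-Eb1), against 3.8%. The motifs were chosen after the sequences had been seen, and a match describes letters, not a bound site. The upstream bases of H2-K1 and H2-D1 shared an identical run of 47 bases, and the annotated starts of Tap1 and of the immunoproteasome gene Psmb9 lay 226 bases apart on opposite strands.

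On GRCm38, the assembly that mm10 names, 8 of the 10 genes lie together on chromosome 17. H2-K1 (ENSMUSG00000061232) spans 33996017 to 34000347 and H2-D1 (ENSMUSG00000073411) spans 35262730 to 35267499. Between them lie Tap1 (ENSMUSG00000037321, 34187553 to 34197225) and Tap2 (ENSMUSG00000024339, 34203527 to 34216321). The class II chains follow on the same stretch, with H2-Ab1 (ENSMUSG00000073421) at 34257689 to 34269419, H2-Aa (ENSMUSG00000036594) at 34282744 to 34287823 and H2-Eb1 (ENSMUSG00000060586) at 34305867 to 34316674. Tapbp (ENSMUSG00000024308) lies just outside H2-K1, at 33915899 to 33929292. B2m (ENSMUSG00000060802) is on chromosome 2 at 122147686 to 122153083, and Cd74 (ENSMUSG00000024610) is on chromosome 18 at 60803848 to 60812652.

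All members were counted well above 0. Libraries held 39310361 to 48879045 counts, and the lowest count of a member in any library was 452, for Tap1. Levels are given as counts scaled to a common library total (CPM), adjusted between libraries by the TMM method, and differences as log2 fold changes of glycerol+melatonin over glycerol. Across the 16259 genes tested by edgeR's quasi-likelihood test, 12 had a p under 0.05 after Benjamini-Hochberg adjustment, in either direction, which is 0.0738%, and 3170 (19.5%) had an unadjusted p under 0.05, 1643 (10.1%) as higher and 1527 (9.39%) as lower in glycerol+melatonin muscle. The third glycerol library was the highest of its group for 8 of the 10 members, and several values below moved when it, or another library, was left out.

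None of the 10 members passed the test, and no member had an unadjusted p under 0.05 by edgeR with TMM factors and all 6 libraries. Among the other edgeR fits, H2-K1 and Tap2 had such a p with library size alone, without the first glycerol+melatonin library and without the third glycerol library, Tap2 and Cd74 with the offset for transcript length, and Tap2 with the replicate block. Their median log2 fold change was 0.01, with 5 above and 5 below 0, against 0.02 over all genes tested. The 6 class I members had a median of 0.26, with 4 above 0, and the 4 class II members a median of -0.03, with 1 above 0. DESeq2 called 0 of 10, where it called 752 of 15011 genes (5.01%), and gave Cd74 alone an unadjusted p under 0.05. Limma-voom called 0 of 10 as well, with 12 of all genes passing (0.0738%). The intervals below show what sizes of difference these 6 libraries leave within reach.

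Per kilobase of transcript, B2m was the most abundant member in both groups, at 519 ± 146 CPM per kb in glycerol+melatonin muscle and 584 ± 110 CPM per kb in glycerol muscle (SD, n = 3 each). In glycerol+melatonin muscle it was followed by H2-Aa at 211, H2-D1 at 205, H2-Ab1 at 198, Cd74 at 185, H2-K1 at 154 and H2-Eb1 at 117 CPM per kb, and the libraries of each neighbouring pair in this order overlapped. In glycerol muscle the order was Cd74 at 234, H2-Aa at 203, H2-Ab1 at 201, H2-D1 at 168, H2-K1 at 120 and H2-Eb1 at 119 CPM per kb. There Cd74, at 228 to 242 CPM per kb, stood above H2-Aa, at 193 to 221 CPM per kb, while the other neighbours overlapped. The machinery that supplies peptides was lower in both groups. Tapbp had 28.4 and 24.05 CPM per kb in glycerol+melatonin and glycerol muscle, Tap2 had 8.57 and 6.31, and Tap1 had 3.72 and 3.91. These 3 genes did not overlap each other or any other member within either group.

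Among the class I genes, the heavy chains were higher in mean in glycerol+melatonin muscle, but their groups overlapped. H2-K1, a classical heavy chain that binds the peptide, had 204, 256 and 289 CPM in the glycerol+melatonin libraries, against 166, 185 and 231 CPM in the glycerol libraries. The third glycerol library lay inside the range of the glycerol+melatonin group, and the other glycerol libraries lay below it. Its log2 fold change was 0.37 ± 0.20 (SE; 95% interval -0.09 to 0.82; edgeR adjusted p = 0.342). Without the third glycerol library it was 0.51 ± 0.21 (edgeR adjusted p = 0.202). H2-D1, the other classical heavy chain of this strain, had 365, 452 and 474 CPM in the glycerol+melatonin libraries, against 295, 330 and 437 CPM in the glycerol libraries. Here too only the third glycerol library reached the other group, and the log2 fold change was 0.28 ± 0.20 (95% interval -0.18 to 0.75; edgeR adjusted p = 0.461). It was 0.47 ± 0.20 without the third glycerol library (edgeR adjusted p = 0.221) and 0.17 ± 0.23 without the first (edgeR adjusted p = 0.774).

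B2m, the light chain that every class I molecule needs to reach the surface, did not follow the heavy chains library by library. It had 397, 353 and 590 CPM in the glycerol+melatonin libraries, against 610, 464 and 432 CPM in the glycerol libraries. The third glycerol+melatonin and the first glycerol library were the high ones, at similar levels, and the groups overlapped. The log2 fold change was -0.17 ± 0.24 (95% interval -0.72 to 0.38; edgeR adjusted p = 0.728), and it was 0.06 when library size alone set the scale, which moved the median of all genes to 0.23. It ran from -0.42 without the third glycerol+melatonin library to -0.0056 without the first glycerol library, and was -0.48 ± 0.26 with the offset for transcript length.

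The transporter subunits differed from each other. Tap2 had 24.5, 30.5 and 33.5 CPM in the glycerol+melatonin libraries, against 18.7, 18.7 and 27.7 CPM in the glycerol libraries, with the third glycerol library inside the range of the other group. Its log2 fold change of 0.44 ± 0.21 (95% interval -0.03 to 0.92; edgeR adjusted p = 0.285) was the highest of the 10, and without the third glycerol library it was 0.66 ± 0.19 (edgeR adjusted p = 0.115). Tap1 had 10.9, 9.95 and 12.1 CPM in the glycerol+melatonin libraries, against 11.8, 10.4 and 12.4 CPM in the glycerol libraries. These values nearly coincided, with a log2 fold change of -0.07 ± 0.16 (95% interval -0.44 to 0.31; edgeR adjusted p = 0.844) that was 0.14 when library size alone set the scale. Tapbp had 78.3, 76.0 and 92.4 CPM in the glycerol+melatonin libraries, against 68.3, 61.9 and 78.9 CPM in the glycerol libraries. The third glycerol library again lay inside the other group, and the log2 fold change was 0.24 ± 0.16 (95% interval -0.13 to 0.60; edgeR adjusted p = 0.427).

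**Figure D1:**
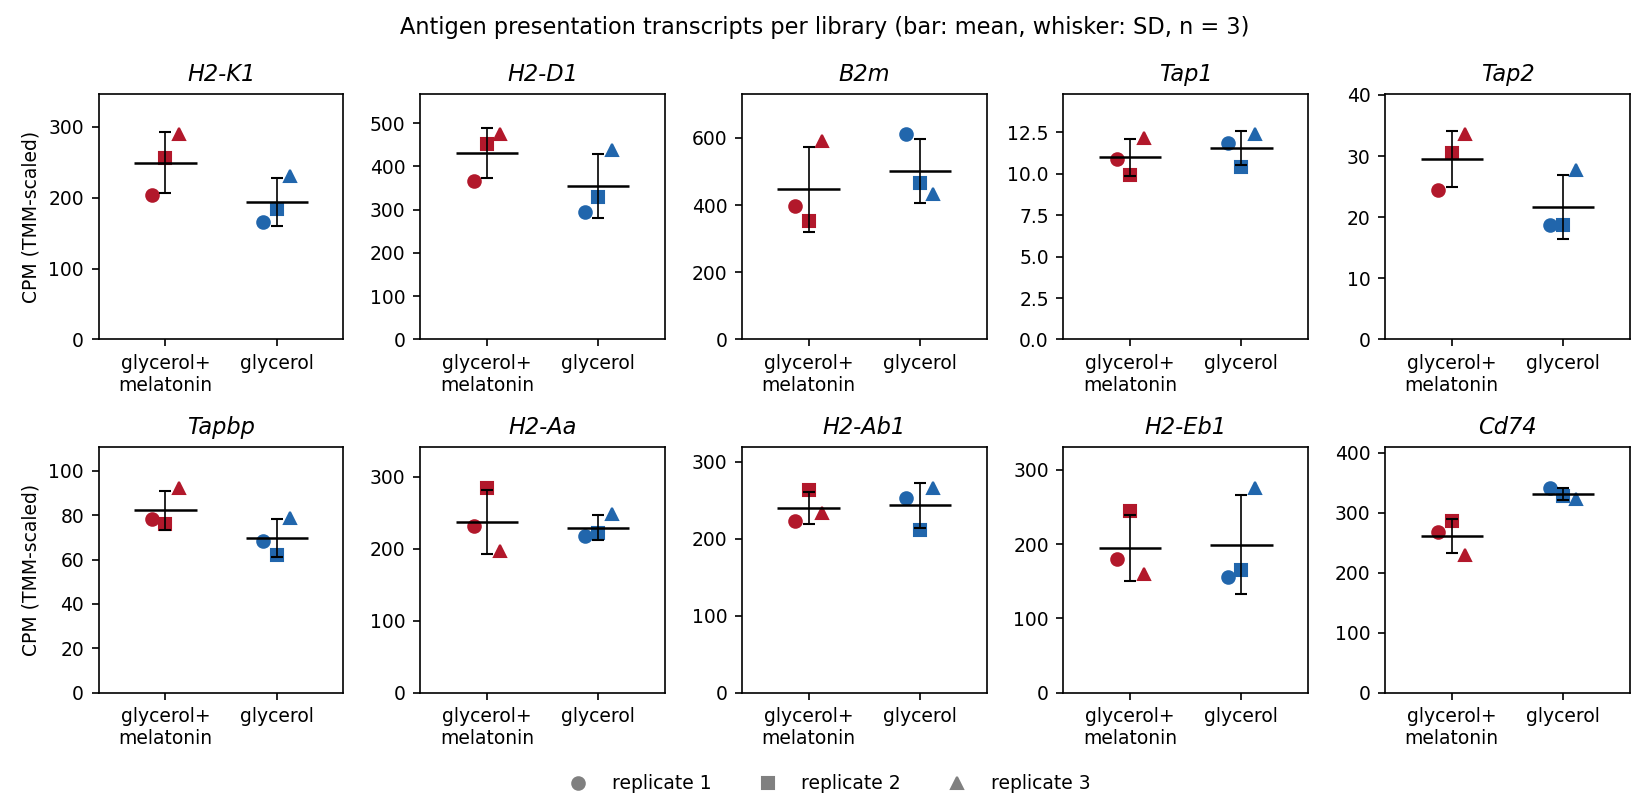
CPM of the 10 antigen presentation genes in each library (y axis, each panel from 0), with glycerol+melatonin in red and glycerol in blue; symbols give the replicate, bars the mean and whiskers the SD of 3 libraries. The groups overlap in 9 panels, and in the Cd74 panel the glycerol+melatonin libraries lie between 229 and 286 CPM, below the glycerol libraries at 322 to 341 CPM.

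Among the class II genes, the 3 chains had fold changes close to 0, with the libraries of the groups mixed. H2-Aa, the alpha chain of the A molecule, had 232, 285 and 196 CPM in the glycerol+melatonin libraries, against 217, 222 and 249 CPM in the glycerol libraries (log2 fold change 0.05 ± 0.18, 95% interval -0.36 to 0.47, edgeR adjusted p = 0.902). H2-Ab1, its beta chain, had 223, 263 and 233 CPM in the glycerol+melatonin libraries, against 253, 211 and 267 CPM in the glycerol libraries (log2 fold change -0.02 ± 0.17, 95% interval -0.40 to 0.36, edgeR adjusted p = 0.955). Within each group the A chains had close to equal counts, with H2-Aa at 0.841 to 1.08 times H2-Ab1 in the glycerol+melatonin libraries and at 0.860 to 1.05 times in the glycerol libraries. H2-Eb1, the beta chain of the E molecule, had 179.8, 244 and 160.0 CPM in the glycerol+melatonin libraries, against 156, 165 and 276 CPM in the glycerol libraries. The second glycerol+melatonin and the third glycerol library stood well above the rest of their groups, and the log2 fold change of -0.03 ± 0.26 (95% interval -0.63 to 0.57; edgeR adjusted p = 0.959) turned to 0.28 ± 0.22 without the third glycerol library (edgeR adjusted p = 0.480). The sign of H2-Aa turned to -0.10 without the second glycerol+melatonin library. That of H2-Ab1 turned in 4 of 6 fits that left out 1 library, and also with library size alone, at 0.19, and with upper quartile factors, at 0.011.

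Cd74 was the only member whose groups did not overlap. It had 267, 286 and 229 CPM in the glycerol+melatonin libraries, against 341, 328 and 322 CPM in the glycerol libraries. The glycerol libraries were close together (330.3 ± 9.995 CPM), and the glycerol+melatonin libraries all lay below them (261 ± 29.0 CPM; SD, n = 3 each). The log2 fold change of -0.34 ± 0.16 (95% interval -0.70 to 0.02; edgeR adjusted p = 0.281) did not pass. Groups that did not overlap were found for 2027 of all 16259 genes as lower in glycerol+melatonin muscle (12.5%), for 2206 as higher (13.6%) and for 4233 in either direction (26.0%), so 1 of 10 members is no more than the share over all genes. With library size alone, the Cd74 groups overlapped, and its log2 fold change was -0.13 ± 0.17. With the offset for transcript length it was -0.54 ± 0.16 (edgeR adjusted p = 0.201).

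**Figure D2:**
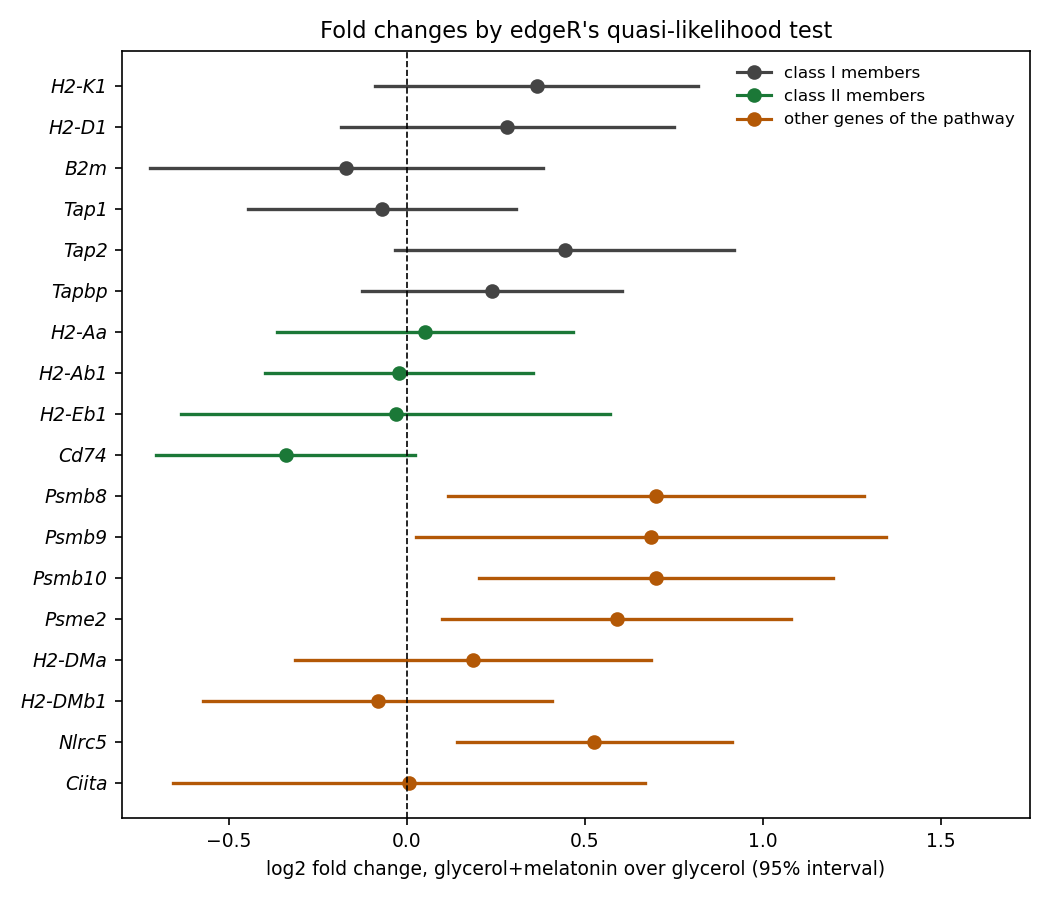
Log2 fold changes of glycerol+melatonin over glycerol (x axis) with 95% intervals by edgeR's quasi-likelihood test, for the class I members (grey), the class II members (green) and 8 other genes of the pathway (orange). All 10 member intervals contain 0, and those of Psmb8, Psmb9, Psmb10, Psme2 and Nlrc5 lie above it, although none of these passed after adjustment over all genes. Psmb8, Psmb9, Psmb10 and Psme2 are the 4 genes with the smallest p of 12 that supply or load class I peptides. In that list 5 of 12 had a log2 fold change below 0, and the median was 0.06. Nlrc5 had the smallest p of 13 regulators of MHC transcription.

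Ratios within a library do not depend on its depth or scaling and compare genes of the same pathway. They were not corrected for transcript length, an offset for which moved the log2 fold change of B2m from -0.17 to -0.48. For the 9 ratios computed, the exact two-sided permutation test of 3 libraries against 3 cannot give a p below 0.1. Tap2 had 2.25, 3.07 and 2.76 counts per Tap1 count in the glycerol+melatonin libraries, against 1.58, 1.80 and 2.24 in the glycerol libraries. All 3 glycerol+melatonin libraries were higher, though the lowest of them, at 2.245, was next to the highest glycerol library, at 2.242 (exact p = 0.1, adjusted over the ratios p = 0.3). Psmb9, the immunoproteasome subunit that shares its upstream region with Tap1, had 0.975, 1.26 and 1.05 counts per Tap1 count in the glycerol+melatonin libraries, against 0.557, 0.460 and 0.885 in the glycerol libraries, and was likewise higher in 3 of 3 libraries (exact p = 0.1, adjusted p = 0.3). Cd74 had 1.15, 1.005 and 1.17 counts per H2-Aa count in the glycerol+melatonin libraries, against 1.57, 1.48 and 1.29 in the glycerol libraries, lower in 3 of 3 libraries (exact p = 0.1, adjusted p = 0.3). Against the sum of the 3 class II chains, Cd74 had 0.390 ± 0.029 and 0.500 ± 0.081 counts per count in glycerol+melatonin and glycerol muscle (SD, n = 3 each), and these groups overlapped (exact p = 0.2, adjusted p = 0.36).

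The summed heavy chains H2-K1 and H2-D1 had 1.43, 2.01 and 1.29 counts per B2m count in the glycerol+melatonin libraries, against 0.755, 1.11 and 1.55 in the glycerol libraries. The third glycerol library lay above the first and the third glycerol+melatonin library, so the groups overlapped (exact p = 0.3, adjusted p = 0.386). H2-K1 per H2-D1 was steady, at 0.578 ± 0.029 in glycerol+melatonin muscle and 0.550 ± 0.019 in glycerol muscle (SD, n = 3 each). Over all 45 pairs of members, the ratio did not overlap between groups for 13 (28.9%), and 6 of these 13 involved Cd74. Over all pairs of tested genes without a count of 0 in any library the share was 24.6%, so the share among members lies near the background.

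**Figure D3:**
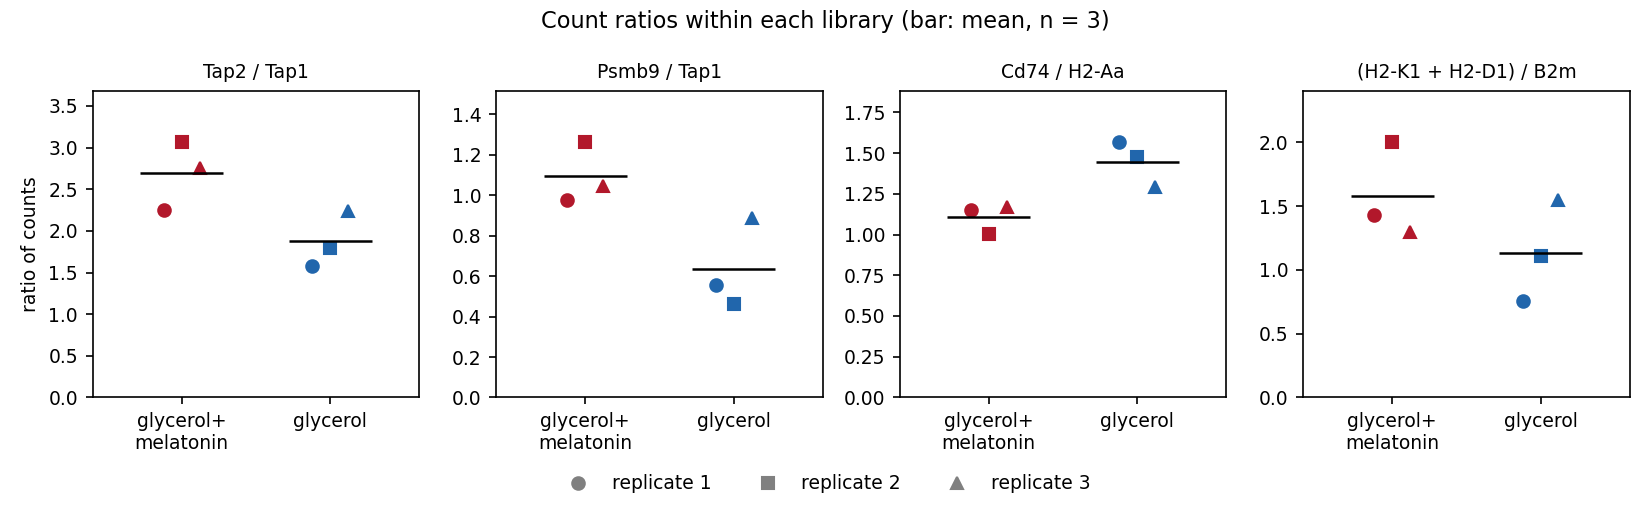
Ratios of counts within each library (y axes from 0), glycerol+melatonin in red and glycerol in blue, with symbols for the replicate and bars for the mean of 3 libraries. Tap2 per Tap1 and Psmb9 per Tap1 are higher in all 3 glycerol+melatonin libraries, Cd74 per H2-Aa is lower in all 3, and the heavy chains per B2m overlap.

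The other genes of the class I pathway were read from lists by function. Of 12 genes that cut, trim or load class I peptides, 7 had a log2 fold change above 0 and 5 below, with a median of 0.06, and 0 passed by edgeR or DESeq2. The log2 fold changes ran from -0.33 to 0.70. Groups did not overlap for 2 of the 12 as higher and 1 as lower, beside 13.6% and 12.5% of all genes. At an unadjusted p under 0.05, 4 of 12 were higher and 0 lower, where 10.1% and 9.39% of all genes were. These 4 were the 3 immunoproteasome subunits, which interferon gamma induces and which change the peptides that the proteasome makes, and a proteasome activator subunit. Psmb10 had 15.8, 18.0 and 18.7 CPM in the glycerol+melatonin libraries, against 8.70, 9.37 and 14.3 CPM in the glycerol libraries, which did not overlap (log2 fold change 0.70 ± 0.22, edgeR adjusted p = 0.176). Psmb8 had 18.5, 22.1 and 25.4 CPM in the glycerol+melatonin libraries, against 12.3, 9.58 and 18.7 CPM in the glycerol libraries (0.70 ± 0.26, edgeR adjusted p = 0.202).

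Psmb9 had 10.6, 12.6 and 12.7 CPM in the glycerol+melatonin libraries, against 6.60, 4.79 and 10.95 CPM in the glycerol libraries, where the third glycerol library alone reached the other group (log2 fold change 0.69 ± 0.29, edgeR adjusted p = 0.246). The activator subunit Psme2 had 30.8, 33.4 and 33.0 CPM in the glycerol+melatonin libraries, against 17.9, 17.7 and 29.1 CPM in the glycerol libraries, without overlap (0.59 ± 0.21, edgeR adjusted p = 0.201). Among the glycerol libraries, all 4 were highest in replicate 3, as 5 of the 6 class I members were. The count of 4 was 2 with an offset for transcript length. It was 3, 1 and 2 without glycerol+melatonin replicate 1, 2 and 3, and 1, 1 and 5 without glycerol replicate 1, 2 and 3.

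Of 12 other class I and class I-like heavy chains, 10 had a log2 fold change above 0, with a median of 0.33 (0.21 to 0.48 when 1 library was left out), and 0 passed by edgeR. Mr1, which presents vitamin B metabolites to a class of innate-like T cells, went the other way, with 11.4, 10.96 and 9.26 CPM in the glycerol+melatonin libraries, against 22.5, 21.1 and 15.8 CPM in the glycerol libraries. These groups did not overlap (log2 fold change -0.91 ± 0.19, edgeR adjusted p = 0.122). Mr1 was the 1 gene of this list called by DESeq2, beside 5.01% of all genes. Cd1d1, which presents lipids to natural killer T cells, had 3.72, 5.46 and 4.77 CPM in the glycerol+melatonin libraries, against 2.94, 2.257 and 3.70 CPM in the glycerol libraries (0.65 ± 0.26, edgeR adjusted p = 0.223). H2-T23, the heavy chain of Qa-1, which engages receptors of natural killer cells, had 40.7 ± 2.38 CPM in glycerol+melatonin muscle and 28.6 ± 10.8 CPM in glycerol muscle (SD, n = 3 each; 0.51 ± 0.25, edgeR adjusted p = 0.297).

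Heavy chain genes resemble each other, and the labels do not state how reads with several matches were counted. Of the 50-base words in the longest coding transcript, 14.3% of those of H2-D1 and 8.8% of those of H2-K1 also stood in transcripts of other genes. For 100-base words the shares were 4.6% and 0.0%. No 50-base word of B2m, H2-Aa, H2-Ab1, H2-Eb1 or Cd74 was shared. Summing the counts of 13 heavy chain genes named H2-K, H2-D, H2-Q and H2-T gave 785, 970 and 1094 CPM in the glycerol+melatonin libraries, against 663, 707 and 908 CPM in the glycerol libraries. The log2 fold change of this sum was 0.32 ± 0.21 (95% interval -0.16 to 0.80; edgeR adjusted p = 0.415), close to those of H2-K1 and H2-D1, which made up 69.5% to 73.6% of it. On the opposite strand, Tap1 shares 212 exon bases with Psmb9, Tap2 shares 533 with Gm15821 and Tapbp shares 904 with Gm19412, and without the strand of counting their reads cannot be told apart. Tapbp also shares 149 exon bases with Zbtb22 on the same strand, where the strand would not separate the reads.

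Of 11 genes that load or process class II molecules, 4 had a log2 fold change above 0 and 7 below, with a median of -0.08, and 0 passed or had an unadjusted p under 0.05. Without the third glycerol library 8 were above 0 and 3 below, with a median of 0.16 and 1 gene at an unadjusted p under 0.05, and with library size alone 9 were above and 2 below, with a median of 0.14. H2-DMa and H2-DMb1, whose products together swap the invariant chain fragment for a peptide, had 18.5 ± 2.61 and 16.6 ± 1.94 CPM in glycerol+melatonin muscle, against 16.3 ± 4.21 and 17.6 ± 4.79 CPM in glycerol muscle (SD, n = 3 each). Their log2 fold changes were 0.19 ± 0.22 (edgeR adjusted p = 0.662) and -0.08 ± 0.22 (edgeR adjusted p = 0.862). Ctss, the protease that cuts the invariant chain in antigen-presenting cells, had 54.3 ± 8.40 CPM in glycerol+melatonin muscle and 45.1 ± 9.20 CPM in glycerol muscle (SD, n = 3 each; 0.27 ± 0.19, edgeR adjusted p = 0.456).

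Of 13 regulators of MHC transcription, 9 had a log2 fold change above 0, with a median of 0.09, and 0 passed. At an unadjusted p under 0.05, 1 of 13 was higher and 0 lower, beside 10.1% and 9.39% of all genes. Groups did not overlap for 2 as higher and 0 as lower, beside 13.6% and 12.5% of all genes, so these counts are near those shares. Nlrc5, the co-activator of class I genes, had 9.48, 10.04 and 11.9 CPM in the glycerol+melatonin libraries, against 7.29, 7.51 and 7.03 CPM in the glycerol libraries. The groups did not overlap, and the log2 fold change was 0.53 ± 0.17 (95% interval 0.14 to 0.91; edgeR adjusted p = 0.181). Ciita, the co-activator of class II genes, had 3.15, 5.65 and 2.77 CPM in the glycerol+melatonin libraries, against 4.13, 3.71 and 3.70 CPM in the glycerol libraries (0.01 ± 0.29, 95% interval -0.66 to 0.67, edgeR adjusted p = 0.993). Ciita was highest in the second glycerol+melatonin library, which was also the highest of its group for all 4 class II members. In the glycerol group the order differed. There Ciita was lowest in the third library, just below the second, while the third was the highest of that group for 3 of the 4 class II members. Irf1, an interferon-induced activator of class I genes, had 12.5, 27.9 and 20.5 CPM in the glycerol+melatonin libraries, against 10.5, 18.8 and 13.7 CPM in the glycerol libraries (0.50 ± 0.31, edgeR adjusted p = 0.398).

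Interferons are the main inducers of these genes. Of 11 interferon receptor and signalling genes, 8 had a log2 fold change above 0 and 3 below, with a median of 0.17 (0.03 to 0.27 when 1 library was left out), and 0 passed. Their summed level went the other way, at 425 to 450 CPM in the glycerol+melatonin libraries and 455 to 506 CPM in the glycerol libraries. At an unadjusted p under 0.05 there were 1 higher and 3 lower, beside 10.1% and 9.39% of all genes, and with library size alone 2 higher and 0 lower. The count of lower genes was 2, 1 and 2 without glycerol+melatonin replicate 1, 2 and 3. It was 0, 0 and 3 without glycerol replicate 1, 2 and 3. The count of higher genes was 0 without glycerol replicate 1 and stayed at 1 without any other library. Socs3, an inhibitor of cytokine signalling, was the higher one, with 12.8, 13.3 and 15.6 CPM in the glycerol+melatonin libraries, against 8.80, 10.06 and 10.5 CPM in the glycerol libraries (log2 fold change 0.51 ± 0.17, edgeR adjusted p = 0.185). The receptor chain Ifngr2 had 56.4 ± 10.4 CPM in glycerol+melatonin muscle and 81.4 ± 10.01 CPM in glycerol muscle (log2 fold change -0.53 ± 0.18, edgeR adjusted p = 0.188), and its kinase Jak2 had 30.5 ± 1.74 CPM in glycerol+melatonin muscle and 43.5 ± 7.63 CPM in glycerol muscle (-0.51 ± 0.17, edgeR adjusted p = 0.185; SD, n = 3 each). The other lower gene, Jak1, had 119 ± 7.91 CPM in glycerol+melatonin muscle and 154 ± 12.3 CPM in glycerol muscle (-0.37 ± 0.15, edgeR adjusted p = 0.227). Of 29 interferon-induced genes, 22 had a log2 fold change above 0, with a median of 0.27 (0.09 to 0.35 when 1 library was left out), and 0 passed by edgeR, while DESeq2 called 3 as higher, Bst2, Oas2 and Isg15, beside 5.01% of all genes. At an unadjusted p under 0.05, 8 of 29 were higher and 0 lower, beside 10.1% and 9.39% of all genes. Without the third glycerol+melatonin library 7 were higher and 2 lower, with 18 log2 fold changes above 0 and 11 below. With all libraries, groups did not overlap for 8 as higher and 2 as lower, beside 13.6% and 12.5% of all genes. Bst2, which tethers budding viruses to the cell, had 43.1, 46.7 and 52.7 CPM in the glycerol+melatonin libraries, against 19.1, 22.8 and 28.2 CPM in the glycerol libraries (1.02 ± 0.18, edgeR adjusted p = 0.103). Its 3 glycerol+melatonin libraries were all above the 3 glycerol libraries.

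The cells that carry MHC molecules were followed by their markers, which stood beside the members as follows. Of 16 macrophage markers, 5 had a log2 fold change above 0 and 11 below, with a median of -0.22, which was -0.07 without the third glycerol library (7 above, 9 below) and -0.02 with library size alone. DESeq2 called 1 of them, the scavenger receptor gene Cd163, as lower, beside 5.01% of all genes. The summed level of the macrophage markers was 634 to 879 CPM in the glycerol+melatonin libraries and 652 to 906 CPM in the glycerol libraries. Of 8 pan-leukocyte markers, 6 were above 0, with a median of 0.18 (0.08 to 0.30 when 1 library was left out), and sums of 151 to 183 CPM in glycerol+melatonin and 145 to 178 CPM in glycerol libraries. Of 10 dendritic cell markers, 6 were above 0, with a median of 0.03 (-0.08 to 0.32 when 1 library was left out), and sums of 33.1 to 41.1 CPM in glycerol+melatonin and 29.8 to 39.4 CPM in glycerol libraries. Of 10 T and NK cell markers, 6 were above 0, with a median of 0.15 (-0.15 to 0.32 when 1 library was left out), and sums of 12.5 to 23.95 CPM in glycerol+melatonin and 11.2 to 21.7 CPM in glycerol libraries. No tested marker of these 4 lists was at 0 in any library. By edgeR, 0 markers in these lists passed, and Timd4, Siglech and Ncr1 were not analysed here. Of 7 monocyte and neutrophil markers, 6 were above 0, with a median of 0.83 that was 0.25 without the third glycerol+melatonin library, and sums of 30.8 to 47.2 CPM in glycerol+melatonin and 21.4 to 31.3 CPM in glycerol libraries. DESeq2 called 1 of these 7, S100a9, as higher, beside 5.01% of all genes, and edgeR called 0. S100a9 was at 0 in 1 glycerol library.

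Of 5 B cell markers, 2 had a log2 fold change above 0 and 3 below, with a median of -0.02 (-0.32 to 0.15 when 1 library was left out), and their sum was 15.0 to 21.0 CPM in the glycerol+melatonin libraries and 23.95 to 33.2 CPM in the glycerol libraries, without overlap. Sums of other lists did not overlap either. Those of interferon-induced genes and regulators of MHC transcription were higher in glycerol+melatonin muscle. Those of interferon receptor and signalling genes and of fibro-adipogenic progenitor markers were lower. Among single genes, groups did not overlap for 26.0% of all genes in either direction, and no such share was computed for sums. Most of the B cell sum was Ighm, the immunoglobulin mu heavy chain, with 13.5, 11.3 and 15.4 CPM in the glycerol+melatonin libraries, against 30.0, 20.3 and 20.5 CPM in the glycerol libraries (log2 fold change -0.82 ± 0.21, edgeR adjusted p = 0.142). DESeq2 called Ighm as lower, 1 of the 5 markers, beside 5.01% of all genes. Cd79b went the other way, at 0.47 ± 0.35 on the log2 scale (edgeR adjusted p = 0.479). Cd79a, a part of the B cell receptor, had 0.799, 0.388 and 0.894 CPM in the glycerol+melatonin libraries, against 0.346, 0.230 and 1.32 CPM in the glycerol libraries, which overlapped, and Ms4a1, Pax5 and Blk were not analysed here. B cells carry class II molecules and Cd74, and the part of Ighm and the other B cell markers in the Cd74 level was not tested. Of 10 endothelial markers, 6 were above 0, with a median of 0.15 that was -0.02 without the third glycerol+melatonin library (5 above, 5 below), and sums of 1112 to 1737 CPM in the glycerol+melatonin libraries and 1069 to 1268 CPM in the glycerol libraries. At an unadjusted p under 0.05, 3 were higher and 0 lower, beside 10.1% and 9.39% of all genes. DESeq2 called 1 endothelial marker, Egfl7, beside 5.01% of all genes. Muscle fibre markers, which identify the tissue, were the most abundant of all lists, at 107809 to 164543 CPM in the glycerol+melatonin libraries and 148186 to 176962 CPM in the glycerol libraries, and 0 of 10 passed.

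Class I and class II members varied differently between the libraries. With each gene's log2 CPM centred on its mean over the 6 libraries, the class I members averaged -0.071, 0.031 and 0.313 in the glycerol+melatonin libraries and -0.146, -0.212 and 0.085 in the glycerol libraries. The class II members averaged -0.085, 0.185 and -0.225 in the glycerol+melatonin libraries and -0.025, -0.078 and 0.227 in the glycerol libraries. The third glycerol+melatonin library was thus the highest for class I, for 6 of 6 members within its group, and the lowest for class II, for 3 of 4 members within its group. The endothelial markers were also highest there, at 0.479, as were the interferon-induced genes, at 0.382, and the monocyte and neutrophil markers, at 1.324, while the muscle fibre markers were lowest there, at -0.280. The macrophage markers were lowest in the first glycerol+melatonin library, at -0.282, and the pan-leukocyte markers were highest in the second, at 0.277, where the class II members were the highest of that group. The part of these markers in the levels of the members was not tested.

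**Figure D4:**
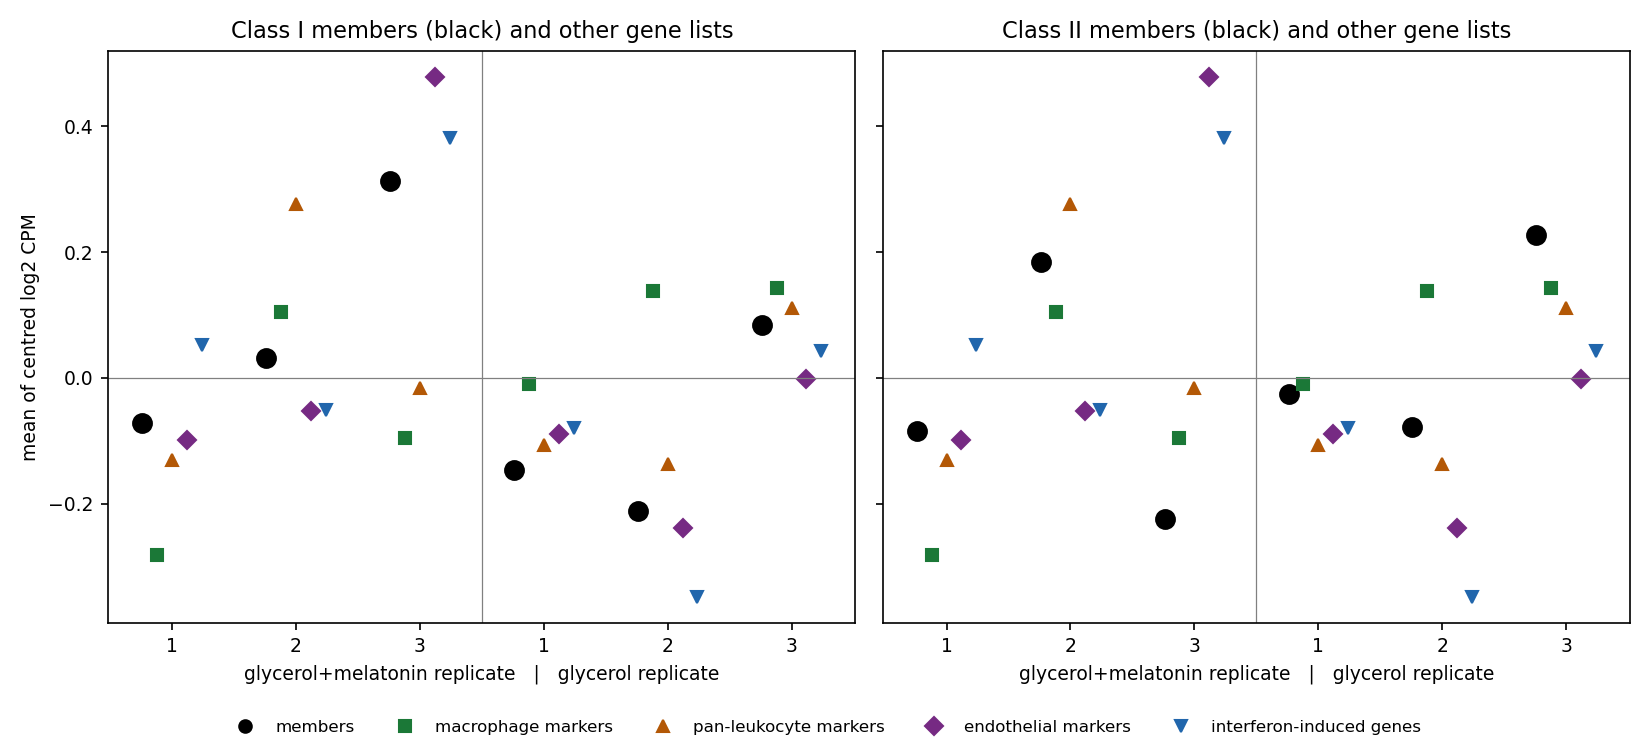
Mean of the centred log2 CPM (y axis) of the class I members (left, black) and the class II members (right, black) in each library, with 4 other gene lists in colour; glycerol+melatonin libraries stand to the left of the vertical line and glycerol libraries to the right. The third glycerol+melatonin library is at 0.313 for class I and at -0.225 for class II, and at 0.479 for the endothelial markers.

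The genes whose pattern over the 6 libraries was most like that of the class I members were searched among 13865 genes with a mean of at least 1 CPM, by the root mean square difference of centred log2 CPM. They were Tdp1 at 0.026, Mprip at 0.038, Cers2 at 0.040, Trpm4 at 0.042, Ggta1 at 0.043, Myzap at 0.046, Abca3 at 0.048 and Rgs4 at 0.049. For the class II members they included Alg14 at 0.026, Anln at 0.039, Scamp1 at 0.051, Parn at 0.052, Abhd6 at 0.054, Wdr45b at 0.056 and Ext2 at 0.057. None of these genes belongs to the lists above, and the search describes these 6 libraries only.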

How the data were processed

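Whole-number read counts for each Ensembl gene were deposited by the authors in a single table covering the 6 libraries. The submitters' processing notes list HISAT2 2.0 and StringTie 1.3.3b beside Trimmomatic 0.36, FastQC 0.11.2, bedtools 2.26.0 and DESeq2 1.12.4, on mm10; how and with which annotation and strand setting reads were counted is not stated there. The tissue label says tibialis anterior, whereas the extraction text names longissimus dorsi. The smallest total of a gene was 28, and 16203 of 16289 genes had a count in every library. Each sample is called a biological replicate in the series' text. Replicates of a group differed by more than resequencing of 1 library would give (chi-square of their counts over its degrees of freedom, 65.9 to 181). This value cannot tell separate mice from repeated preparations of the same RNA.

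Symbols were found for 16260 genes. Positions came from GENCODE M21, and promoters from RefSeq. Counts of all 6 libraries were fitted in edgeR 4.0.16 (R 4.3.3) with TMM factors, filterByExpr (16259 genes kept) and the quasi-likelihood test, with Benjamini-Hochberg adjustment over all genes. Per-kilobase levels used the longest coding transcript, and centred log2 CPM a prior count of 2. The members and gene lists were chosen with earlier results of these data known. Named genes are the members, up to 4 genes with the smallest p per list, some regulators and markers listed with the tests, and the 8 most similar genes per class. Not every gene that this rule picks is given in the text. Alternatives were RLE and upper quartile factors, library size alone, DESeq2 1.42.0, limma-voom (limma 3.58.1), no filter, a minimum of 1 CPM in 3 libraries, a replicate block, a spline offset for transcript length, summed heavy chains and leaving out each library. The scripts were tested on simulated data. Replicate numbers did not pair the libraries.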

Additional observations from a re-analysis of the deposited data

How the results depend on the processing

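No member passed under any of the 15 alternatives, nor did the summed heavy chains. The lowest adjusted p of a member was 0.115, for Tap2 without the third glycerol library. Over all genes, 12 passed by edgeR, 752 by DESeq2, 0 with the replicate block and 6 to 27 when a library was left out, 6 without the first glycerol library, 27 without the third glycerol library, and 25 and 24 without the first and the third glycerol+melatonin library. Same-numbered libraries correlated at -0.015, 0.004 and -0.048 in their deviations from the group means, and no library correlated best with its own number, so the numbers gave no pairing. With the replicate block in edgeR the lowest adjusted p of a member was 0.242, also for Tap2. Library size alone moved the median log2 fold change of all genes to 0.23, that of class I members to 0.47 and that of class II members to 0.17. The offset for transcript length gave class II a median of -0.22. When a library was left out, the class I median ran from 0.18 to 0.40 and the class II median from -0.16 to 0.09. Library size alone turned B2m to 0.065, Tap1 to 0.14, H2-Ab1 to 0.19 and H2-Eb1 to 0.15, and upper quartile factors turned H2-Ab1 to 0.011. H2-Aa turned to -0.19 with the length offset and to -0.10 without the second glycerol+melatonin library. Over the fits that each left out 1 library, H2-Ab1 ran from -0.11 to 0.053 and H2-Eb1 from -0.23 to 0.28, and of these 4 and 3 turned the sign. The cause of these turns was not tested. H2-K1, H2-D1, Tap2, Tapbp and Cd74 kept their direction under every alternative run, with ranges of 0.22 to 0.58, 0.17 to 0.49, 0.35 to 0.66, 0.15 to 0.44 and -0.54 to -0.13. A limit common to all results is the spread between mice, with 3 per group.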

Other observations

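The class Ib gene H2-Q1 had 159, 238 and 139 counts in the glycerol+melatonin libraries, against 76, 120 and 0 counts in the glycerol libraries (log2 fold change 1.24 ± 0.91, edgeR adjusted p = 0.468). The count of 0 stood in the third glycerol library, where H2-D1, with which H2-Q1 shares sequence, had its highest count of the glycerol group, 17846. By CPM, that library was the highest of its group for 5 of the 6 class I members. How reads were shared out between H2-Q1 and H2-D1 was not tested. H2-K2 had 87, 425 and 187 counts in the glycerol+melatonin libraries, against 105, 90 and 92 counts in the glycerol libraries (0.9996 ± 0.44, edgeR adjusted p = 0.258), and the second glycerol+melatonin library was well above the others. Both genes were chosen after their values were seen.

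Ptprc, which encodes the pan-leukocyte surface protein CD45, had 4.13, 20.3 and 3.47 CPM in the glycerol+melatonin libraries, against 13.6, 14.4 and 6.17 CPM in the glycerol libraries. The summed pan-leukocyte markers did not share this spread, at 151 to 183 CPM in glycerol+melatonin and 145 to 178 CPM in glycerol libraries. The neutrophil gene S100a9 had 0.320, 1.64 and 7.23 CPM in the glycerol+melatonin libraries, against 0.0494, 0 and 0.0980 CPM in the glycerol libraries. Fibro-adipogenic progenitor markers were the list with the most genes at an unadjusted p under 0.05 as lower, 5 of 10, beside 9.39% of all genes, and DESeq2 called 4 of the 10 (Dcn, Osr1, Fbn1 and Hsd11b1), beside 5.01% of all genes.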
